A study of Mus musculus with 11 samples.

Results

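The comparison described here sets tumour-infiltrating myeloid cells from Stat3-deleted mice against the same kind of cells from Tlr9-deficient mice. Libraries were chosen by their titles: 4 are named STAT3KO and 4 TLR9KO, together 8 of the 11 RNA-seq libraries of the series, and the other 3, from wild-type mice (WT), are given beside single values. STAT3KO mice are labelled STAT3-/- with the alleles MxCre and Stat3flox, TLR9KO mice are labelled TLR9-/-, and all mice had a C57BL/6 background. In every group the subcutaneous tumour was irradiated locally with 15 Gy and taken 4 days later, CD11b-positive cells were enriched on magnetic beads without culture, and total RNA was sequenced. The labels give neither the tumour line nor the age of the mice, and name no treatment to induce Cre. An Mx promoter responds to interferon and is active in blood-forming and other tissues, so the Stat3 deletion need not be limited to myeloid cells, and the TLR9-/- label names no cell type either. The groups differ in both genes and in the Cre and floxed alleles, whose parts in a difference cannot be told apart. Whether the 4 libraries of a group stem from different animals is not in the labels, and p-values therefore describe only how much these libraries vary, which may be technical.

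STAT3 is a transcription factor that cytokine receptors of the IL-6, IL-10 and colony-stimulating factor families switch on through JAK kinases, and it induces its own inhibitor, SOCS3. TLR9 is an endosomal receptor for unmethylated CpG DNA that signals through MYD88 to NF-kB and interferon regulatory factors. In tumour myeloid cells STAT3 is known for tolerogenic and angiogenic programs, and TLR9 for sensing DNA released by dying cells.

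Values are RPKM, reads per kilobase of a gene's transcript divided by the library's mapped reads, and differences are STAT3KO minus TLR9KO on the log2(RPKM + 1) scale with the moderated standard error of limma. This scale understates changes of low genes. A gene passed the test where its limma adjusted p over the 10557 genes tested was below 0.05. Words such as higher, lower, rose and fell refer to STAT3KO relative to TLR9KO unless WT is named.

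The 8 libraries separated by genotype along their first principal component, which held 51.4% of the variance, and the second, with 22.4%, spread the TLR9KO libraries from replicate 1 to replicate 3. Pairs of libraries correlated across genes at 0.978 to 0.993 within STAT3KO, at 0.959 to 0.993 within TLR9KO and at 0.948 to 0.970 between them, where genes are not independent replicates. Between 15414 and 16237 symbols had a value above 0 in each knockout library, and the groups did not differ past the threshold in an exact permutation test (two-sided p = 0.171, where 4 against 4 cannot go below 0.0286). STAT3KO replicate 2 stood apart from its group by neutrophil genes and TLR9KO replicate 1 by low MHC class II genes, and results that rest on them are given with and without them. Itgam, the CD11b chain used for enrichment, was 191 to 228 RPKM in STAT3KO and 177 to 328 RPKM in TLR9KO. Xist was 0 and the Y-linked Ddx3y at least 3.40 RPKM in all 11 libraries. Of 4 tested Y-linked genes 1 passed limma's test, Ddx3y, lower in STAT3KO, a call that some alternatives lost. Pigment-cell genes were present in every library, with Pmel at 189.8 to 306 and 129 to 381 RPKM, and 0 of the 12 tested melanocyte markers passed limma's test (2 at an unadjusted p below 0.05). Bulk RNA cannot tell fewer cells of a type from less RNA per cell.

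**Figure D1:**
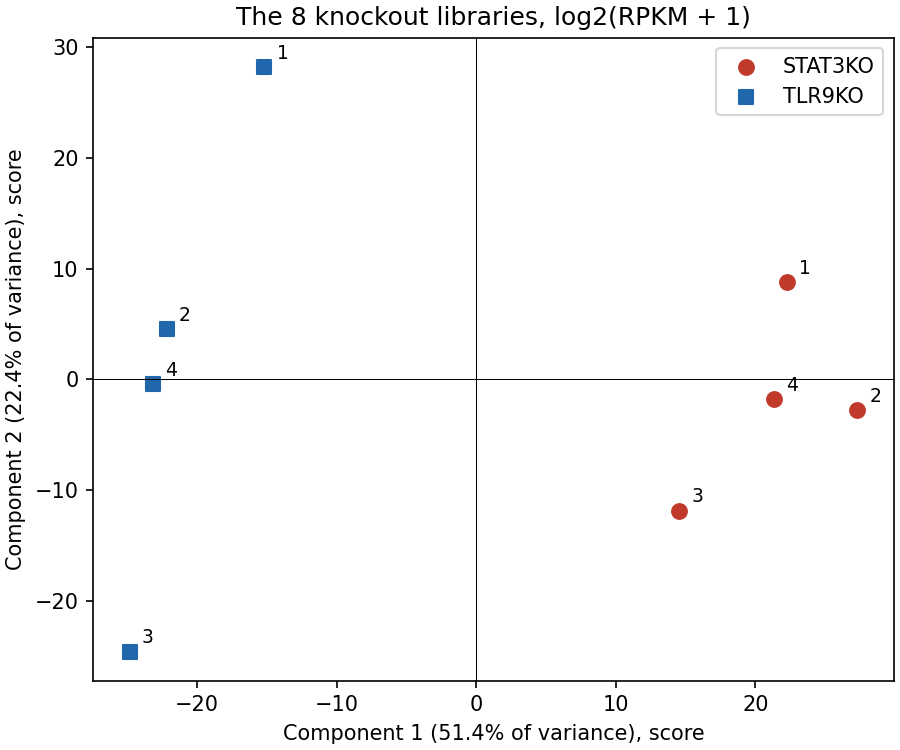
Scores of the 8 knockout libraries on the first 2 principal components of log2(RPKM + 1) over the 10557 genes tested, with the replicate number beside each point (circles STAT3KO, squares TLR9KO). The groups lie on opposite sides along component 1 (51.4% of variance), and along component 2 (22.4%) TLR9KO replicates 1 and 3 are the farthest apart.

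The targeted genes came out as labelled. Stat3 stood at 19.7, 15.7, 19.6 and 17.8 RPKM in STAT3KO and at 64.7, 68.8, 58.5 and 65.3 RPKM in TLR9KO. Tlr9 stood at 20.7, 19.2, 61 and 29 RPKM in STAT3KO and at 3.53, 6.15, 7.7 and 5.71 RPKM in TLR9KO. Neither gene overlapped between the groups, and the log2 differences were -1.77 ± 0.08 for Stat3 (limma adjusted p = 7.71e-07) and 2.19 ± 0.35 for Tlr9 (0.00189). Both knockouts kept reads of their targeted gene, and values per gene cannot show which exons those reads cover. In gene order on chromosome 9, 7 of the 20 nearest tested neighbours of Tlr9 passed the test, 35.0% against 22.8% of all genes, and over 100 neighbours the share was 21%. Higher in STAT3KO among them were Dusp7, a phosphatase of ERK kinases, at 13.3, 15.8, 16.3 and 18.6 RPKM against 6.09, 4.47, 4.32 and 5.45 RPKM, Parp3, a DNA repair enzyme (0.91), the ribosomal protein gene Rpl29 (0.89), Abhd14b (1.17) and Abhd14a (0.58). Abhd14a did not pass without STAT3KO replicate 1, 2 or 4, without TLR9KO replicate 3 or 4 or without the filter on low values (limma adjusted p = 0.0646 to 0.083), nor with a correction for GC content and transcript length (0.35, limma adjusted p = 0.184). Lower were Atp2c1 (-0.59) and Wdr82 (-0.32). Dusp7 did not overlap between the groups (log2 1.48 ± 0.12, limma adjusted p = 2.52e-05), and WT lay between them at 8.52 to 9.42 RPKM. Around Stat3 on chromosome 11, 15.0% of the 20 nearest neighbours passed. These were Acly (-0.79) and Stat5a (-0.29), both lower, and Psmc3ip (0.43), which was higher.

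The knockouts differed in 2409 of the 10557 genes tested (22.8%), of which 1410 were higher (13.4%) and 999 lower (9.46%) in STAT3KO, with a median log2 difference of 0.065 over all genes. The shares of 13.4% and 9.46% are the baseline for the counts of list members below. At least 2-fold differences were found for 295 genes (2.79%), 124 higher (1.17%) and 171 lower (1.62%). With median-ratio scaling the split of all calls was 1007 higher and 1193 lower. For 27.0% of the genes no STAT3KO library reached into the TLR9KO range. Leaving out TLR9KO replicate 4 left 1577 calls, of which 869 were higher, leaving out STAT3KO replicate 4 left 923 higher, and leaving out TLR9KO replicate 2 left 636 lower.

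The 12 largest rises included a neuropeptide, a chemokine, an iron exporter and a chemokine receptor. They were picked from genes whose groups did not overlap, so their lack of overlap was set by the selection. Npy, which encodes neuropeptide Y, was 29.8, 35.6, 19.4 and 22.4 RPKM in STAT3KO and 0, 0, 0.09 and 0.05 RPKM in TLR9KO. The TLR9KO libraries were at or near 0, the STAT3KO libraries were the highest, and WT lay between at 3.63 to 6.54 RPKM (log2 4.71 ± 0.19, limma adjusted p = 2.73e-07). Cxcl1, a chemokine that attracts neutrophils through CXCR2, was 45, 23.1, 23.6 and 25.1 RPKM against 4.05, 2.49, 2.19 and 1.8 RPKM. Here STAT3KO lay within the WT range of 17.8 to 54.1 RPKM and the TLR9KO libraries were below it (log2 3.04 ± 0.32, limma adjusted p = 0.000191). Slc40a1, which encodes the iron exporter ferroportin, was 57.6, 43, 22 and 64.6 RPKM against 8.23, 3.87, 2.59 and 4.94 RPKM, with WT at 1.89 to 8.4 RPKM. Cx3cr1, the fractalkine receptor of patrolling monocytes and many tissue macrophages, was 14.2, 11.4, 23.7 and 38.4 RPKM against 1.6, 1.47, 4.11 and 1.97 RPKM. For Slc40a1 and Cx3cr1 the STAT3KO libraries were the high ones, with no overlap (log2 3.0 ± 0.44 and 2.72 ± 0.35, limma adjusted p = 0.00125 and 0.000739). Also among the 12 largest rises were Igf1, an insulin-like growth factor made by macrophages (2.07), Cd5l, a secreted macrophage protein (2.12), Ctla2b, related to cathepsin propeptides (2.48), the kinase gene Cdk18 (2.04), AA465934 (2.62) and 1700112E06Rik (2.30). Tlr9 itself and Retnlg complete them. Retnlg, a resistin-like gene of neutrophils, was 4.06, 67.6, 8.45 and 9.61 RPKM against 0.92, 1.3, 3.82 and 1.81 RPKM, and its difference of 2.30 (limma adjusted p = 0.0348) was 1.52 without STAT3KO replicate 2 (0.0409) and did not pass without STAT3KO replicate 4, without TLR9KO replicate 1, 2 or 4, with a correction for GC content and length or without the filter on low values (limma adjusted p = 0.0501 to 0.0807).

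The 12 largest falls were of several kinds, among them ligands, receptors, chemokines, secreted proteins, a transporter and a tRNA synthetase. Lack of overlap was a condition of their selection too. The symbol 1600029D21Rik was 0.86, 0.21, 0.71 and 0.57 RPKM in STAT3KO and 20.9, 76.6, 67.2 and 44.3 RPKM in TLR9KO (difference -4.93 ± 0.38, limma adjusted p = 2.5e-05). Pdcd1lg2, the gene of the checkpoint ligand PD-L2, was 0.56, 0.15, 0.96 and 0.78 RPKM against 8.4, 27.6, 44.1 and 29.8 RPKM (log2 -3.97 ± 0.40). Both were under 1 RPKM in every STAT3KO library, and TLR9KO replicate 1 was the lowest of its group for both. Ccdc80, a secreted matrix-associated protein (-3.24), Slc7a2, a transporter of arginine and other cationic amino acids (-2.98), Tarm1, an activating receptor of myeloid cells (-2.58), Tnfrsf9, the costimulatory receptor CD137 (-2.70), and Spon1, an extracellular matrix protein (-2.65), fell as well. Slc7a2 was 3.76, 4.2, 1.89 and 2.59 RPKM in STAT3KO against 41.7, 31.2, 21.3 and 31.9 RPKM in TLR9KO, where no library of one group reached the other. Ccl17, a ligand of CCR4 made by IL-4-stimulated macrophages and dendritic cells, was 24.1, 10.1, 24.3 and 15.9 RPKM against 70.6, 226, 169 and 119 RPKM (log2 -2.86 ± 0.41, limma adjusted p = 0.00118). Mgl2, a galactose-binding C-type lectin, was 50.8, 20.3, 39.98 and 57.9 RPKM against 125, 417, 313 and 295 RPKM (log2 -2.71 ± 0.42). For both genes TLR9KO replicate 1 was the lowest of its group and still above every STAT3KO library.

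Some genes set TLR9KO apart from both STAT3KO and WT. Lars2, the mitochondrial leucyl-tRNA synthetase, was 33.9, 31.2, 38.4 and 31.8 RPKM in STAT3KO, 364, 399, 354 and 271 RPKM in TLR9KO and 49.1, 36 and 43 RPKM in WT. Ccl8, a monocyte-attracting chemokine, was 122, 94.9, 91.9 and 131 RPKM, 671, 619, 1087 and 798 RPKM and 132, 246 and 174 RPKM in the same order. The TLR9KO libraries were the high ones for both, and did not overlap with either other group (log2 STAT3KO minus TLR9KO -3.31 ± 0.13 and -2.82 ± 0.22, limma adjusted p = 2.73e-07 and 2.5e-05). Glb1, the lysosomal beta-galactosidase, was low in TLR9KO at 14.6, 16.8, 13.7 and 13.2 RPKM, against 41.9, 39.9, 35.5 and 51.1 RPKM in STAT3KO and 41.9, 36.5 and 35.2 RPKM in WT (log2 1.46 ± 0.12, limma adjusted p = 2.69e-05). Phgdh, the first enzyme of serine synthesis, was likewise low in TLR9KO at 2.6 to 5.6 RPKM, against 11.8 to 17 RPKM in STAT3KO and 13.3 to 20.5 RPKM in WT. These genes were picked from the named ones after their values were seen. Lars2 lies on chromosome 9, as Tlr9 does, and the part of this location in its difference was not tested.

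**Figure D2:**
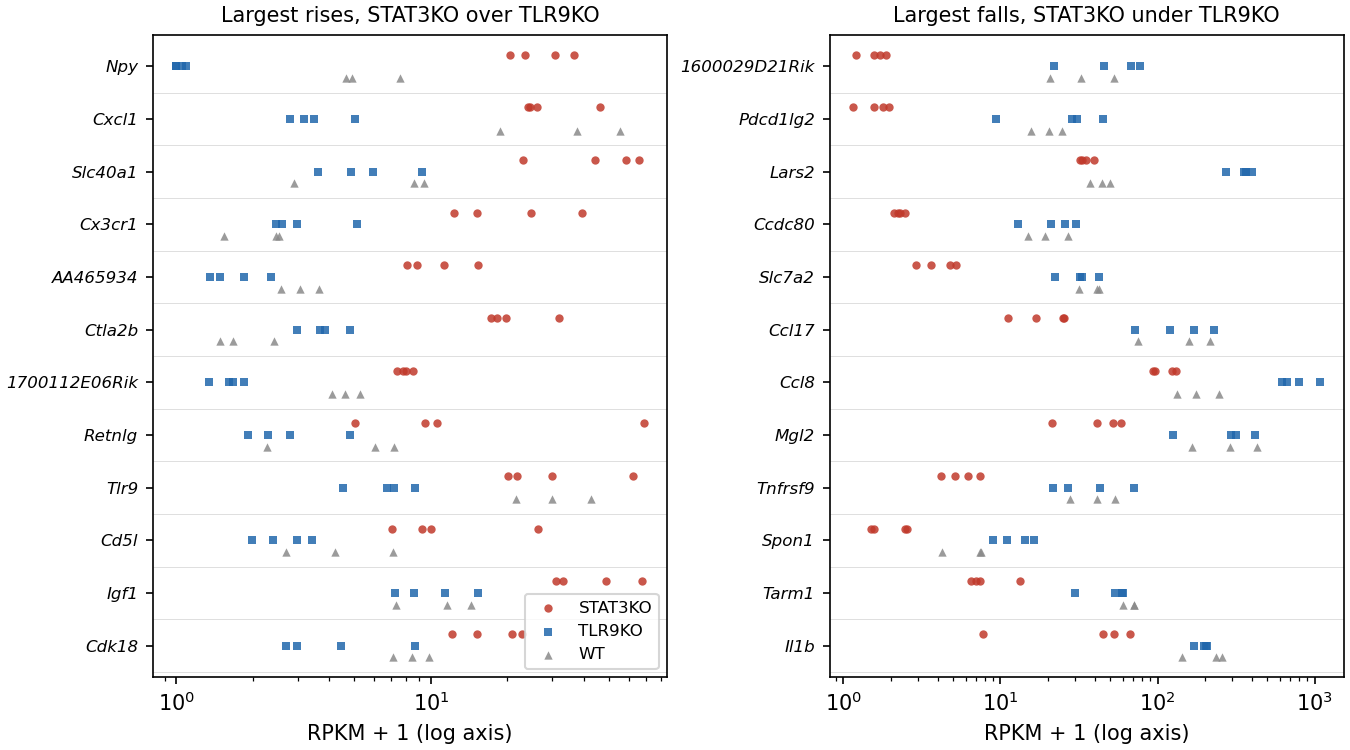
Each point is 1 library, with RPKM + 1 on a log axis (circles STAT3KO, squares TLR9KO, triangles WT), for the 12 largest rises on the left and the 12 largest falls on the right. STAT3KO and TLR9KO do not overlap for any of the 24 genes, which their selection required, and Lars2 and Ccl8 are higher in TLR9KO than in both other groups.

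Receptors and feedback inhibitors of cytokine signalling were lower in STAT3KO where they differed. Of 29 tested cytokine receptors and JAK-STAT components, 0 were higher by limma's test (1 at an unadjusted p below 0.05) and 8 lower, Stat3 among them (median log2 -0.14), and 1 was higher without STAT3KO replicate 2. Il4ra, the ligand-binding chain of the IL-4 receptor, was 44.9, 55.5, 58.8 and 57.4 RPKM in STAT3KO and 153, 118, 109 and 157 RPKM in TLR9KO (difference -1.28 ± 0.14, limma adjusted p = 0.000275). Csf2rb, the shared chain of the GM-CSF, IL-3 and IL-5 receptors, was 73, 50.4, 68.2 and 57 RPKM against 136, 123, 109 and 124 RPKM (-0.99 ± 0.12). Neither overlapped between groups. Jak3, a kinase of receptors with the common gamma chain, also fell (-1.04 ± 0.11). The receptors that feed STAT3 directly did not pass, with Il6ra at a log2 difference of 0.32 ± 0.18, Il6st, which encodes gp130, at -0.09 ± 0.26 and Il10ra at -0.11 ± 0.25.

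Of 29 tested genes known to respond to STAT3, 3 were higher and 10 lower (median -0.21). The higher count was near the 13.4% of all genes, of which 9.46% were lower. Socs3, the feedback inhibitor of gp130 signalling, was 19.4, 24.1, 30.2 and 19.97 RPKM in STAT3KO and 94.4, 106, 141 and 158 RPKM in TLR9KO. The highest STAT3KO library was far below the lowest TLR9KO library. Cish, a SOCS-family inhibitor best known as a target of STAT5, was 6.9, 6.87, 11.5 and 7.05 RPKM against 26.2, 41.9, 37 and 42 RPKM, without overlap. Cish lies on chromosome 9, as Tlr9 does, and was also lower in TLR9KO than in WT (log2 -0.85, limma adjusted p = 0.00932). The log2 differences were -2.36 ± 0.17 for Socs3 (limma adjusted p = 1.92e-05) and -2.06 ± 0.19 for Cish (7.98e-05). Hif1a, the oxygen-regulated transcription factor (-1.28 ± 0.13), and Bcl3, an IkB-family cofactor (-0.86 ± 0.13), were lower too. Myc, a growth-promoting transcription factor and a classical STAT3 target, went the other way, at 24, 29.5, 22.7 and 21.2 RPKM in STAT3KO and 12.9, 11.4, 8.15 and 13.2 RPKM in TLR9KO (1.04 ± 0.14, limma adjusted p = 0.00094). The cyclin gene Ccnd1 was also higher (1.14 ± 0.25), with TLR9KO replicate 2 at 81.6 RPKM close to the lowest STAT3KO library at 86.5 RPKM.

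The letters TTCNNNGAA, a pattern that STAT proteins can bind and which reads the same on both strands, were searched in RefSeq promoter windows (GRCm38.p6, 250 bases before to 50 after the start). They occurred in 679 of the 8390 tested genes with a window (8.09%), in 81 of 1129 higher genes (7.17%) and in 69 of 769 lower genes (8.97%). Among genes changed at least 2-fold, 9 of 92 higher genes (9.78%) and 20 of 125 lower genes (16%) held them. Socs3 and Ccl17 are shown because both fell strongly and hold 1 match each in the 250 bases before the start, in capitals, 154 bases before the start in Socs3 and 99 bases in Ccl17. The strands are minus for Socs3 (chr11:117969367-117969616) and plus for Ccl17 (chr8:94810203-94810452), and the sequences run 5′ to 3′ along the gene. A match describes letters only and was not tested for binding.
Socs3: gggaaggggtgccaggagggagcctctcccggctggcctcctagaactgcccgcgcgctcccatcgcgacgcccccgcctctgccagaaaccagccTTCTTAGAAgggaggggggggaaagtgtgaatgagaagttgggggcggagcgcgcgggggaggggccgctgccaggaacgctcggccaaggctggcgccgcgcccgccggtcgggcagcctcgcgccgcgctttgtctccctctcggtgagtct
Ccl17: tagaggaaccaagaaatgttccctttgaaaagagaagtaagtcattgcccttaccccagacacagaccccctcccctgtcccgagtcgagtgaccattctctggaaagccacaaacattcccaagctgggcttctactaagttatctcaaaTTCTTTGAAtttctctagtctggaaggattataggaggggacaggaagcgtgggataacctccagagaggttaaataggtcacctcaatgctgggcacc

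Genes that IL-4 induces in alternatively activated macrophages were mostly lower in STAT3KO. Of 26 tested, 3 were higher and 16 lower, with a median log2 difference of -1.04 against 0.065 for all genes. Of all genes 13.4% were higher and 9.46% lower. The members overlap with other lists, and Ccl17, Mgl2, Pdcd1lg2, Slc7a2 and Il4ra, given above, are among the 16. Mrc1, the mannose receptor CD206, was 109, 97.9, 99 and 126 RPKM in STAT3KO and 272, 208, 160.3 and 207 RPKM in TLR9KO. Egr2, a transcription factor of IL-4-activated macrophages, was 17, 8.66, 19.8 and 11.9 RPKM against 64.3, 76.9, 61.5 and 72.1 RPKM. The groups did not overlap for either gene (log2 -0.95 ± 0.19 and -2.24 ± 0.20, limma adjusted p = 0.0065 and 8.18e-05). Irf4, an IL-4-responsive interferon regulatory factor (-1.64 ± 0.35), Clec7a, the beta-glucan receptor dectin-1 (-1.98 ± 0.28), and Cdh1, E-cadherin (-2.05 ± 0.28), were lower. The ranges of Cdh1 were 0.73 to 1.04 RPKM (STAT3KO), 3.06 to 11.1 RPKM (TLR9KO) and 14.8 to 25.4 RPKM (WT). The textbook marker Arg1, arginase 1, did not pass, at 493, 937, 373 and 652 RPKM against 1068, 578, 419 and 859 RPKM (log2 -0.25 ± 0.35, limma adjusted p = 0.641). Chi3l3, the chitinase-like protein Ym1, did not pass either (1.81 ± 0.81, 0.129), and STAT3KO replicate 2 alone stood at 1043 RPKM against 35.1 to 68.5 RPKM in the other STAT3KO libraries. Without that library the difference of Chi3l3 was 0.75 (limma adjusted p = 0.0554). Among members that passed, the largest rise was that of Ccl24, the eosinophil chemokine eotaxin-2, at 12.7 to 17.8 RPKM in STAT3KO and 4.41 to 6.66 RPKM in TLR9KO (1.36 ± 0.18).

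Among 26 C-type lectins and scavenger receptors, 8 were higher and 6 lower, where 13.4% of all genes were higher and 9.46% lower. Without STAT3KO replicate 1, STAT3KO replicate 2 or TLR9KO replicate 2 the higher count was 5, 5 and 4. Clec4n, the fungal mannan receptor dectin-2, fell (-1.19 ± 0.21), and Lgals1, the glycan-binding galectin-1, rose, at 1436 to 1756 RPKM in STAT3KO against 674 to 1010.4 RPKM in TLR9KO (0.95 ± 0.14). The inhibitory IgG receptor Fcgr2b was 258, 211, 321 and 296 RPKM in STAT3KO and 715, 636, 678 and 646 RPKM in TLR9KO, and the neonatal Fc receptor Fcgrt, which recycles IgG, was 46.1 to 63.4 against 110.3 to 158 RPKM. Both fell without overlap (-1.31 ± 0.13 and -1.22 ± 0.16, limma adjusted p = 0.000125 and 0.000646), while Fcgr1 (0.32 ± 0.18), Fcgr3 (-0.17 ± 0.11) and Fcgr4 (-0.09 ± 0.35), activating IgG receptors, did not pass. With the correction for GC content and length Fcgr3 was lower (-0.32, limma adjusted p = 0.0355). Cd274, the PD-1 ligand PD-L1, was 51.3, 58, 53.4 and 45.1 RPKM against 109.7, 104, 109 and 117 RPKM, without overlap (-1.07 ± 0.12, limma adjusted p = 0.00036). In all, 5 of 24 costimulatory and checkpoint molecules were higher and 4 lower, with the sialic acid receptor Siglece higher (1.54 ± 0.20) and the inhibitory receptor Cd200r1 lower (-0.74 ± 0.13).

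The MHC class II genes named here were lower in every STAT3KO library than in 3 of the 4 TLR9KO libraries. H2-Aa, an MHC class II alpha chain, was 927, 639, 1338 and 855 RPKM in STAT3KO and 1049.6, 2681, 4436 and 2267 RPKM in TLR9KO. Ciita, the master activator of these genes, was 8.31, 6.35, 15.8 and 9.49 RPKM against 12, 37, 49.7 and 37 RPKM. TLR9KO replicate 1 lay within the STAT3KO range for both. H2-DMb2, a peptide-loading chain, was 19.6, 18.9, 25.9 and 18.2 RPKM against 27.6, 92.3, 81.8 and 74.8 RPKM and did not overlap (-1.58 ± 0.35, limma adjusted p = 0.00954). Of 15 members tested, 0 were higher by limma's test (1 at an unadjusted p below 0.05, and 1 past the test without TLR9KO replicate 3) and 8 lower (median -0.96). The lower count was 9 without TLR9KO replicate 1, but 2 without STAT3KO replicate 1 or 4, 2 without TLR9KO replicate 3, and 1 without STAT3KO replicate 2 or TLR9KO replicate 2 or 4. H2-Aa (-1.34 ± 0.39, limma adjusted p = 0.0305) did not pass in any of those 6 cases or without the filter on low values (0.0604 to 0.0805), where 2 members were lower, and Ciita (-1.58 ± 0.40, 0.0178) failed without STAT3KO replicate 2 and without TLR9KO replicate 2 or 4 (0.0503 to 0.0522). Of 19 MHC class I genes 0 passed limma's test, 1 had an unadjusted p below 0.05, and 1 was lower without TLR9KO replicate 1.

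**Figure D3:**
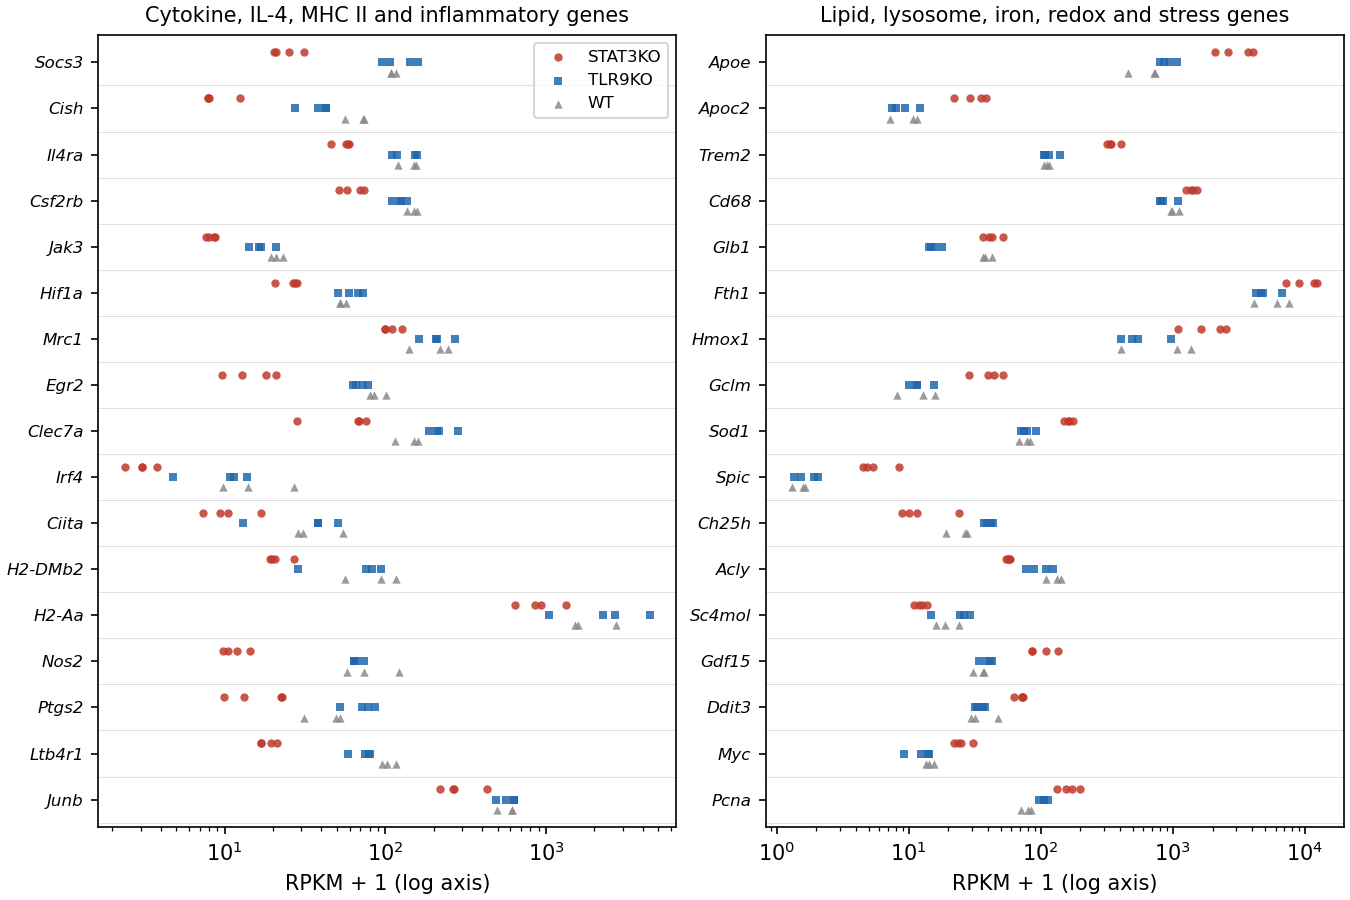
Each point is 1 library, with RPKM + 1 on a log axis (circles STAT3KO, squares TLR9KO, triangles WT), for genes of the groups the text describes. Only genes that passed the test are shown, so named genes that did not pass, such as Arg1, Tnf and Il6st, are left out. The genes on the left were all picked from those lower in STAT3KO, and for Ciita and H2-Aa 1 TLR9KO library lies among the STAT3KO libraries. On the right Apoe, Trem2, Gclm and Sod1 are higher in STAT3KO without overlap, while Ch25h, Acly and Sc4mol are lower.

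Among inflammatory effectors falls outnumbered rises, while some of the best-known cytokines did not pass. Of all genes 13.4% were higher and 9.46% lower. Nos2, the inducible nitric oxide synthase, was 9.55, 13.3, 10.9 and 8.8 RPKM in STAT3KO and 62.6, 63, 64.6 and 72.8 RPKM in TLR9KO. Ptgs2, the inducible cyclooxygenase, was 21.9, 8.95, 21.4 and 12.2 RPKM against 85.1, 70.7, 51.6 and 77.2 RPKM. The groups were far apart for both (log2 -2.53 ± 0.20 and -2.14 ± 0.28, limma adjusted p = 2.52e-05 and 0.000739). Il1b, the pyrogenic cytokine, was 51.9, 6.77, 66 and 43.8 RPKM against 197, 203, 205 and 169.7 RPKM, and STAT3KO replicate 2 was the lowest library (-2.54 ± 0.55, limma adjusted p = 0.00872, and -1.84 with 0.000588 without that library). Osm, oncostatin M (-1.03 ± 0.18), and Tnfsf14, the TNF-family ligand LIGHT (-1.58 ± 0.21), fell too, and of 16 members tested 1 was higher (0 without STAT3KO replicate 3 or 4) and 6 lower (median -0.54). Tnf was 46.4, 60.3, 79.4 and 44.9 RPKM in STAT3KO and 44.5, 39, 61.1 and 44.7 RPKM in TLR9KO and did not pass (0.26 ± 0.20, limma adjusted p = 0.349), nor did Il6 (-0.64 ± 0.25, 0.0934), which passed without TLR9KO replicate 3 (-0.85, limma adjusted p = 0.0238) and with array weights (0.0222).

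On the receptor side, 6 of 35 Toll-like receptors, adaptors and kinases were higher, the targeted gene Tlr9 among them, and 5 lower. Without STAT3KO replicate 1 only 2 of them were lower. Over all genes 13.4% were higher and 9.46% lower. Tlr4, the lipopolysaccharide receptor, was 15.9, 15.2, 17.5 and 17.6 RPKM against 33.9, 26.9, 25.3 and 28.7 RPKM without overlap (-0.75 ± 0.11, limma adjusted p = 0.00154). Tlr7, an endosomal receptor for RNA, did not pass (0.33 ± 0.18, 0.21), and did without TLR9KO replicate 1 (0.49, limma adjusted p = 0.0456). Of 19 NF-kB subunits and inhibitors 1 was higher (0 without any 1 library other than STAT3KO replicate 2 or TLR9KO replicate 2) and 4 lower, with the nuclear inhibitor Nfkbid at -1.16 ± 0.21 and the kinase Chuk at -0.49 ± 0.08, while the subunits Nfkb1 (-0.18 ± 0.17) and Rela (-0.05 ± 0.07) did not pass. Of 18 genes of prostaglandin and leukotriene synthesis and prostaglandin receptors 2 were higher and 4 lower, Ptgs2 among the lower ones (median -0.04). The higher count was near the 13.4% of all genes, and was 1 without STAT3KO replicate 3 or TLR9KO replicate 1, 2 or 4. The phospholipase gene Pla2g4a, which releases arachidonic acid, was lower (-0.76 ± 0.15), and Ltc4s, the leukotriene C4 synthase, was higher at 4.32, 6.76, 12.6 and 13.1 RPKM against 2.51, 2.15, 1.29 and 1.52 RPKM (1.74 ± 0.31). Ltb4r1, the leukotriene B4 receptor and not a member of that list, was 15.9, 20.3, 18.6 and 15.8 RPKM in STAT3KO and 73.5, 79, 57.9 and 78.3 RPKM in TLR9KO (-1.97 ± 0.12, limma adjusted p = 6.29e-06).

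Among chemokines, Ccl6, an abundant myeloid CC chemokine, was 734, 1226, 577 and 606 RPKM in STAT3KO and 2761, 2203, 1841 and 2335 RPKM in TLR9KO (-1.59 ± 0.23, limma adjusted p = 0.00111). No STAT3KO library reached the TLR9KO range. Ccl2, the main monocyte chemoattractant, overlapped broadly at 858 to 1147 and 638 to 1470.2 RPKM and did not pass (0.09 ± 0.24, 0.822). Of all genes 13.4% were higher and 9.46% lower. Of 12 CC chemokines 1 was higher and 4 lower. Of 21 chemoattractant receptors 6 were higher and 5 lower (3 lower with the correction for GC content and length). The formyl peptide receptor Fpr1 (1.42 ± 0.20) and the oxysterol receptor Gpr183 (1.56 ± 0.11) rose, both from levels under 2 RPKM.

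Immediate early genes, which are transcribed within minutes of stimulation, were 1 higher and 13 lower of 26 (median -0.42), with 0 higher without any 1 library other than STAT3KO replicate 4 or TLR9KO replicate 3. Junb, an AP-1 subunit, was 267, 263, 428 and 218 RPKM in STAT3KO and 486, 559, 628 and 631 RPKM in TLR9KO (-1.01 ± 0.19, limma adjusted p = 0.00422). STAT3KO replicate 3 was the highest of its group and still below TLR9KO. The AP-1 subunit Fosl2 (-1.37 ± 0.18), the orphan nuclear receptor Nr4a2 (-1.87 ± 0.32) and the antiproliferative Btg2 (-1.22 ± 0.22) were lower too, while Fos (0.03 ± 0.17) and Atf3 (0.15 ± 0.15) did not pass. Of 27 myeloid transcription factors 11 were lower (median -0.29) and 5 higher, where 9.46% of all genes were lower and 13.4% higher. Runx3, a Runt-family factor (-0.72 ± 0.10), Id2, an inhibitor of basic helix-loop-helix factors (-0.78 ± 0.10), and Tcfec, a macrophage-restricted MiT-family factor (-0.79 ± 0.11), fell. Spic, which is needed by iron-recycling macrophages, rose, at 3.48 to 7.43 RPKM in STAT3KO against 0.36 to 1.06 RPKM in TLR9KO (1.72 ± 0.20, limma adjusted p = 0.000397). The higher count was 3 without STAT3KO replicate 1, 2 or 3 or TLR9KO replicate 1, and 2 without TLR9KO replicate 4.

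Lipid-handling genes of macrophages were more often higher than lower in STAT3KO, with 12 of 33 higher and 3 lower (median 0.37), and 5 lower with the correction for GC content and length. Over all genes 13.4% were higher and 9.46% lower. Apoe, a lipid carrier secreted by macrophages, was 2086, 3744, 2618 and 4059 RPKM in STAT3KO and 857, 804, 1069 and 932 RPKM in TLR9KO. Trem2, a receptor for lipids and apolipoproteins, was 335, 342, 315 and 401 RPKM against 139.9, 105, 115 and 106 RPKM. Apoc2, the cofactor of lipoprotein lipase, was 20.9 to 37.5 against 6.5 to 11.2 RPKM. All 3 were higher in every STAT3KO library than in any TLR9KO library (log2 1.73 ± 0.23, 1.57 ± 0.11 and 1.75 ± 0.21, limma adjusted p = 0.000741, 1.28e-05 and 0.000474). Ch25h, which makes 25-hydroxycholesterol, a ligand precursor for Gpr183 and a brake on sterol synthesis, was lower at 8.98, 7.87, 10.6 and 23.1 RPKM against 42.7, 38.4, 36 and 40.9 RPKM (-1.69 ± 0.26, limma adjusted p = 0.00172). Lpl, lipoprotein lipase, did not pass (0.19 ± 0.20, 0.529).

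In cholesterol and fatty acid synthesis the members that passed were all lower in STAT3KO. Of 23 enzymes and regulators 0 were higher by limma's test, also at an unadjusted p below 0.05, and 9 lower (median -0.47). Acly, which makes cytosolic acetyl-CoA, was 55.1, 53.3, 57.7 and 56.1 RPKM in STAT3KO and 76.8, 108, 87.2 and 123 RPKM in TLR9KO. Sc4mol, the sterol C4-methyl oxidase, was 11, 12.7, 9.95 and 11.7 RPKM against 13.9, 25.3, 23.5 and 27.9 RPKM. TLR9KO replicate 1 was the lowest of its group for both and above every STAT3KO library (-0.79 ± 0.14 and -0.90 ± 0.20, limma adjusted p = 0.003 and 0.00931). Mvd, the mevalonate decarboxylase (-0.82 ± 0.18), and the sterol carrier Stard4 (-0.92 ± 0.18) fell as well. Without TLR9KO replicate 1, 15 members were lower, and without TLR9KO replicate 2 or 4, 5 were.

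Lysosomal, iron and redox genes were more often higher than lower in STAT3KO, and over all genes 13.4% were higher and 9.46% lower. Of 36 cathepsins and lysosomal genes 11 were higher and 2 lower (7 higher without TLR9KO replicate 2, and 1 lower without STAT3KO replicate 1 or 2 or TLR9KO replicate 4). Cd68, a glycoprotein of macrophage endosomes and lysosomes, was 1513, 1378, 1252 and 1422 RPKM in STAT3KO and 1089.5, 799.8, 836 and 809 RPKM in TLR9KO (0.66 ± 0.12, limma adjusted p = 0.00394), and Gusb, the beta-glucuronidase, rose as well (0.50 ± 0.11). Of 19 iron genes 6 were higher and 2 lower, 3 were higher with the correction for GC content and length, and 1 was lower without any 1 library other than STAT3KO replicate 3 or 4. Hmox1, the haem-degrading oxygenase, was 2546, 2286, 1089 and 1644 RPKM against 969, 492, 406 and 549 RPKM (1.65 ± 0.40, limma adjusted p = 0.0148). STAT3KO replicates 1 and 2 were the highest, and TLR9KO replicate 1 was close to the lowest STAT3KO library. Fth1, the ferritin heavy chain, was 12476, 11742, 7180.2 and 9103 RPKM against 6746, 4814, 4674 and 4293 RPKM (0.97 ± 0.24, limma adjusted p = 0.0159), a call that was lost without TLR9KO replicate 4 (0.0501) and without the filter on low values (0.203). Ireb2, which represses ferritin translation, was lower (-0.54 ± 0.10). Of 23 NRF2 targets and NADPH oxidase genes 8 were higher and 2 lower (0 or 1 lower without any 1 library other than TLR9KO replicate 3). Gclm, the modifier subunit of glutathione synthesis, was 51.1, 43.2, 27.6 and 38.7 RPKM in STAT3KO and 14.7, 8.99, 10.6 and 10.6 RPKM in TLR9KO, and Sod1, the cytosolic superoxide dismutase, was 161, 176, 148 and 164 RPKM against 73.5, 77.8, 90.7 and 70.4 RPKM. Both separated without overlap (1.74 ± 0.23 and 1.05 ± 0.10, limma adjusted p = 0.000747 and 0.000101). Srxn1, sulfiredoxin (1.04 ± 0.20), and catalase, Cat (0.68 ± 0.12), rose too, and Cybb, the catalytic NADPH oxidase subunit, did not pass (-0.43 ± 0.23, 0.209).

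Secreted growth and vessel factors split in both directions, with 8 of 26 higher and 7 lower. A filter at 5 RPKM, which leaves fewer genes to test, left 3 higher. Over all genes 13.4% were higher and 9.46% lower. Pgf, placental growth factor, was 5.39, 4.57, 2.99 and 2.92 RPKM in STAT3KO and 44.5, 31.3, 10.8 and 28.5 RPKM in TLR9KO, and Areg, the EGF-receptor ligand amphiregulin, was 1.24, 0.69, 1.47 and 1.15 RPKM against 10.9, 8.13, 2.45 and 4.56 RPKM. TLR9KO replicate 3 was the lowest of its group for both (-2.46 ± 0.36 and -1.67 ± 0.35, limma adjusted p = 0.00129 and 0.00784). Higher were Gdf15, a stress-induced TGF-beta family member, at 109, 134, 84.4 and 84.4 RPKM against 33.4, 38.1, 40.5 and 41.4 RPKM (1.38 ± 0.15), its relative Gdf3 (1.89 ± 0.19) and Angpt2, a ligand of the TIE2 receptor (1.45 ± 0.20). Vegfa, the main vessel growth factor, overlapped and did not pass (-0.04 ± 0.28, 0.934). In the urokinase system the protease and its receptor moved in opposite directions. Plau, urokinase, was 383, 354, 284 and 387 RPKM in STAT3KO and 240.5, 228, 207 and 236 RPKM in TLR9KO (0.62 ± 0.11), and its receptor Plaur was 149, 156, 137 and 116 RPKM against 341, 259.9, 197 and 236 RPKM (-0.87 ± 0.15). The coagulation factor genes F7 and F10 were both lower, at 28.6 to 49.9 against 106 to 129.5 RPKM and 34.1 to 52 against 99.5 to 113 RPKM (-1.56 ± 0.15 and -1.28 ± 0.12, limma adjusted p = 0.000136 and 0.000115).

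In the stress and growth lists, calls among ATF4-linked genes, p53 targets and cell cycle genes were more often higher than lower. The same held over all genes, with 13.4% higher and 9.46% lower. Ddit3, the stress-induced transcription factor CHOP, was 71.3, 72.2, 70.6 and 61.5 RPKM in STAT3KO and 35.5, 36.8, 32.1 and 31.1 RPKM in TLR9KO (1.0 ± 0.13, limma adjusted p = 0.000794), whereas Xbp1, a factor of the unfolded protein response, was lower (-0.73 ± 0.08). Of 22 ATF4-linked genes 6 were higher and 2 lower, with 3 higher without STAT3KO replicate 2 and 1 lower without any 1 library other than TLR9KO replicate 3. Among 24 p53 targets 7 were higher and 2 lower (1 lower without STAT3KO replicate 2 or 4 or TLR9KO replicate 2 or 4), with the pro-apoptotic Bbc3 at 0.88 ± 0.16, and Cdkn1a, the p21 cell cycle inhibitor, did not pass (-0.23 ± 0.10, 0.111), but was lower without TLR9KO replicate 3 (-0.29, limma adjusted p = 0.0493), with array weights (0.029) and with the correction for GC content and length (0.0226). Pcna, the DNA polymerase clamp, rose, at 131 to 197 RPKM against 95.6 to 112 RPKM (0.63 ± 0.12). Of 32 cell cycle genes 5 were higher, near the 13.4% of all genes, and 0 lower, also at an unadjusted p below 0.05. Without any 1 library other than STAT3KO replicate 3, 2 or 3 were higher. With the correction for GC content and length, median-ratio scaling, a pseudocount of 0.1 or no filter, 2 were higher. Of 32 glycolysis and hypoxia-induced genes 0 were higher by limma's test (2 at an unadjusted p below 0.05) and 2 lower, the phosphofructokinase Pfkp (-0.81 ± 0.14) and the aldolase Aldoc (-1.0 ± 0.20), and 5 were lower without TLR9KO replicate 3.

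Few type I interferon genes passed. Of 32 tested, 1 was higher and 0 lower by limma's test (1 lower at an unadjusted p below 0.05), with a median of 0.03, and Ifit1 (-0.59 ± 0.29), Isg15 (-0.02 ± 0.32) and Mx1 (0.23 ± 0.32) did not pass. The higher count was 2 without STAT3KO replicate 2 or TLR9KO replicate 3 and 0 without TLR9KO replicate 4, and 1 was lower without STAT3KO replicate 3. Among 29 interferon-inducible GTPases, PYHIN and Schlafen genes 1 was higher and 1 lower (median -0.29). Their lower count was 5 without TLR9KO replicate 1 (median -0.52), 2 without STAT3KO replicate 3 and 9 with array weights, and the higher count was 3 without STAT3KO replicate 2 and 2 without TLR9KO replicate 1 or 3. The lower gene, Slfn8, was 5.88, 9.57, 10.6 and 6.51 RPKM in STAT3KO, 20.7, 19.1, 23.1 and 14 RPKM in TLR9KO and 2.38, 4.91 and 2.81 RPKM in WT (-1.16 ± 0.22, limma adjusted p = 0.00504), and Schlafen genes can share reads. Tmem173, which encodes the DNA-sensing adaptor STING, was lower (-1.05 ± 0.25), with TLR9KO replicate 1 at 43.2 RPKM next to the highest STAT3KO library at 42.8 RPKM.

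**Figure D4:**
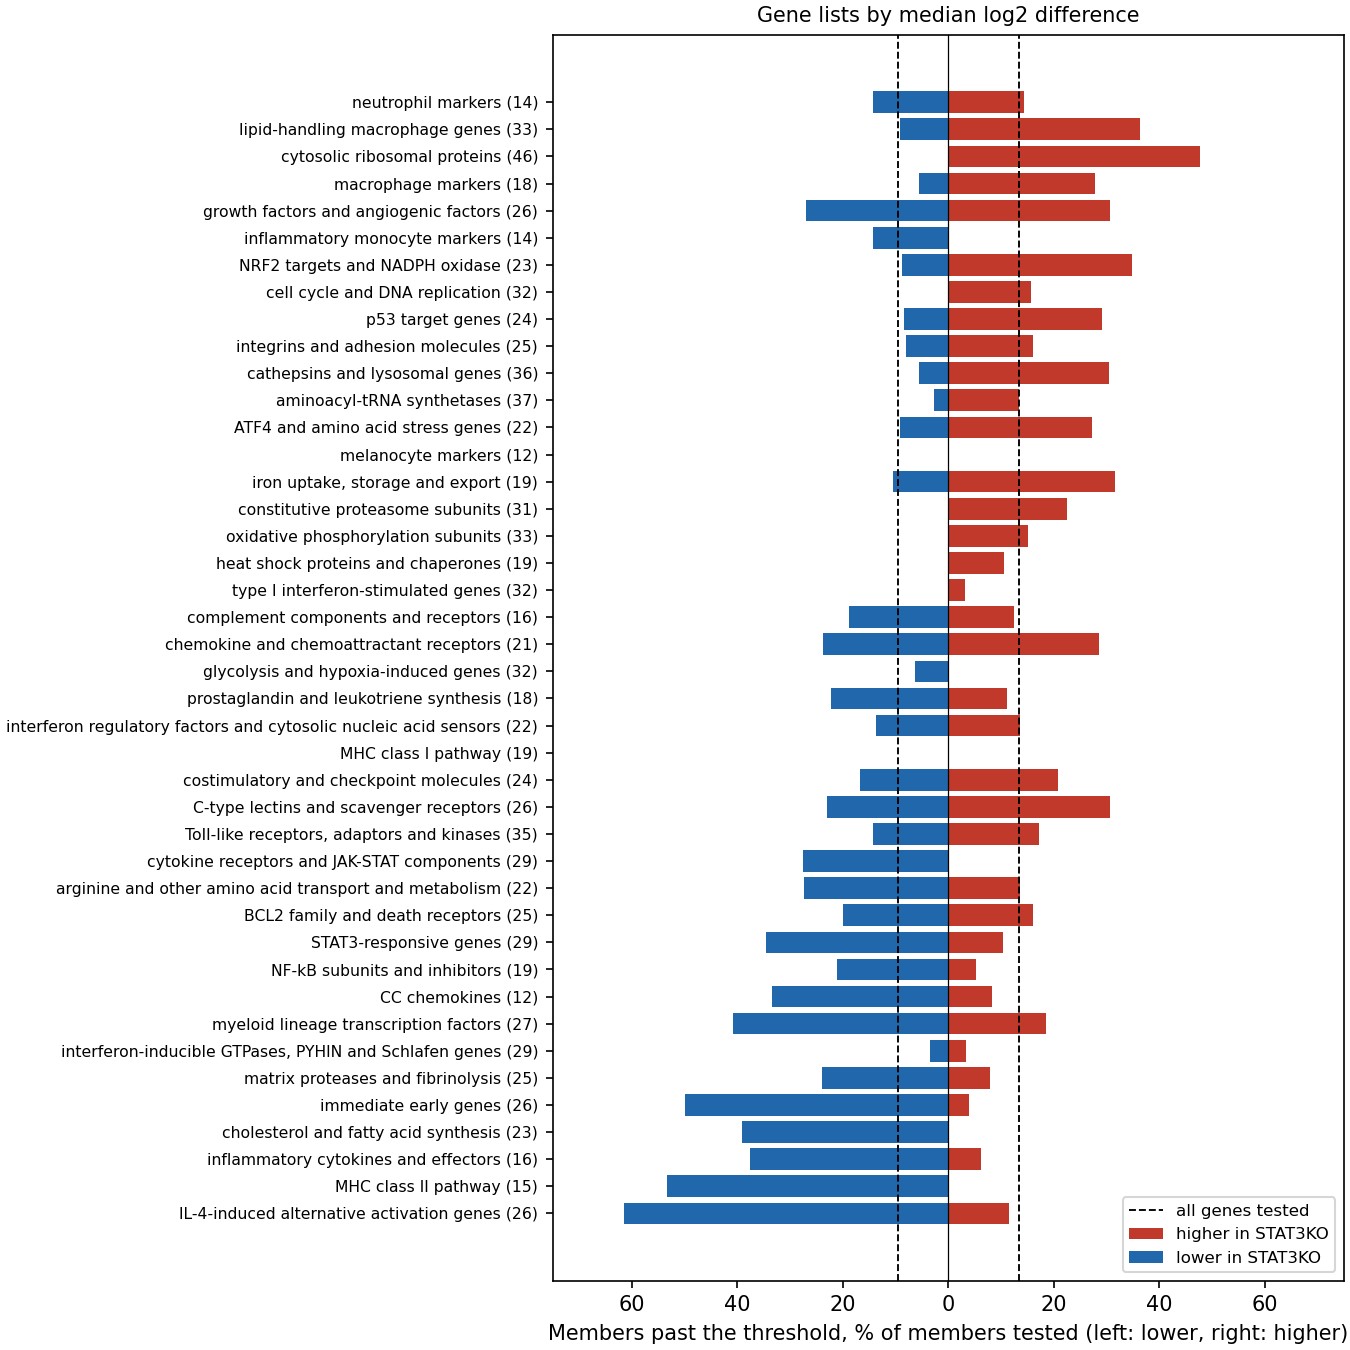
Bars give the percent of tested members past the test, higher in STAT3KO to the right and lower to the left, for the lists with at least 12 members tested (number in brackets), ordered by their median log2 difference. Dashed lines mark the shares of all genes, 13.4% higher and 9.46% lower. IL-4-induced and MHC class II genes are at the bottom with mostly falls, and neutrophil markers, whose median rests on 1 library, are at the top.

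Ribosomal protein genes showed many small rises. Of 46 tested, 22 were higher and 0 lower by limma's test, also at an unadjusted p below 0.05 (median 0.36), for example Rps18 at 741 to 904 against 472 to 574 RPKM (0.63 ± 0.10, limma adjusted p = 0.00184). Over all genes, the difference between the knockouts followed transcript composition, with a Spearman correlation across 10428 genes of 0.317 with GC content and -0.27 with length. In the shortest quintile of genes 545 were higher and 94 lower, and in the longest quintile 111 were higher and 271 lower. In the quintile with the lowest GC content 108 were higher and 431 lower. With a correction for GC content and length, 10 ribosomal protein genes were higher and their median was 0.14. The higher count was 14 without STAT3KO replicate 1 or TLR9KO replicate 2, and 11 without TLR9KO replicate 4. Of 33 oxidative phosphorylation subunits 5 were higher, near the 13.4% of all genes, and 0 lower (9 higher without TLR9KO replicate 3). Of 31 proteasome subunits 7 were higher and 0 lower. Their higher count fell to 3 with the correction for GC content and length and with median-ratio scaling. It also fell to 3 without any 1 library other than STAT3KO replicate 4 or TLR9KO replicate 3.

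**Figure D5:**
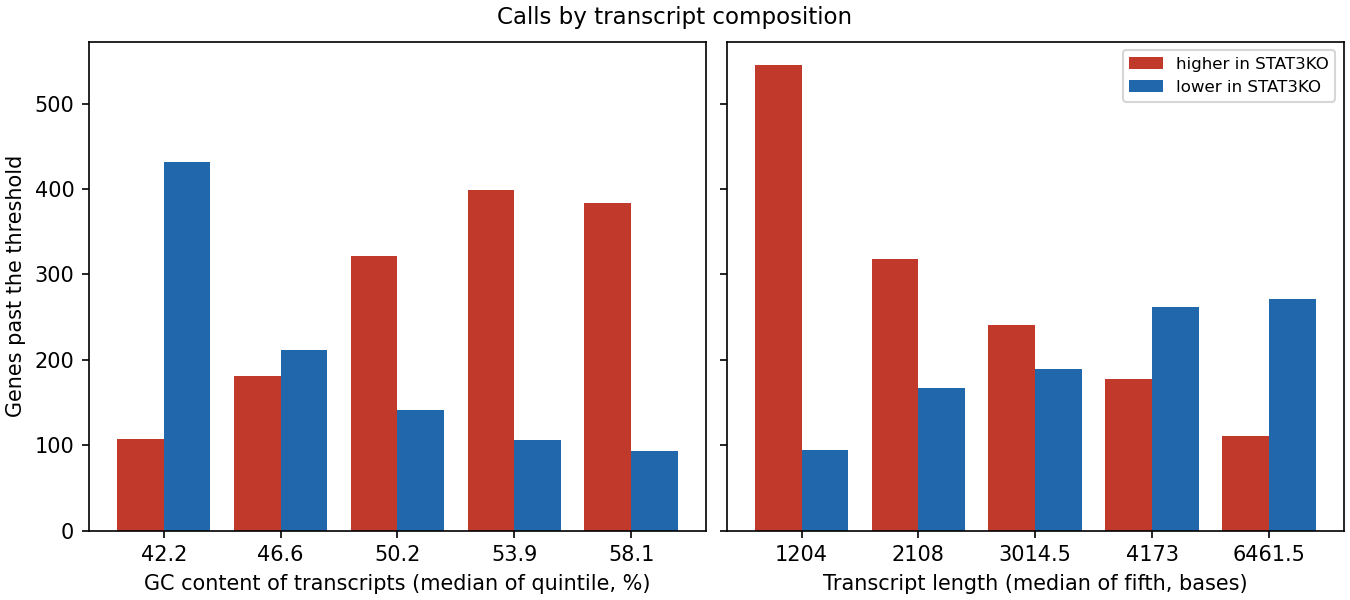
Bars count the genes past the test in quintiles of GC content (left) and transcript length (right), higher in STAT3KO or lower in STAT3KO, with the median of each quintile on the horizontal axis. Falls outnumber rises in the quintile of lowest GC content (431 against 108) and rises outnumber falls in the shortest quintile (545 against 94).

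Among markers of cell types, calls fell in the macrophage, monocyte, neutrophil, dendritic cell, B cell and epithelial lists. By limma's test 0 fell in those of T and NK cells, fibroblasts, and erythroid cells and platelets. Of all genes 13.4% were higher and 9.46% lower. In the B cell list 1 of 2 tested members was higher, Cd79b, and the 1 tested epithelial marker, Cdh1, was lower. Of 18 macrophage markers 5 were higher and 1 lower, and their summed level, which includes Apoe, was 8903 to 12895 RPKM in STAT3KO and 5913 to 8989 RPKM in TLR9KO. The receptor genes Csf1r (0.10 ± 0.13) and Emr1, which encodes F4/80 (0.61 ± 0.24), did not pass, and Emr1 was higher without STAT3KO replicate 2 (0.85, limma adjusted p = 0.0132) and with array weights (0.0102). Of 14 inflammatory monocyte markers 0 were higher by limma's test (2 at an unadjusted p below 0.05) and 2 lower, the chemokine receptor Ccr2 (-1.13 ± 0.33) and fibronectin, Fn1 (-1.13 ± 0.36), while the list's median was 0.29. Ccr2 did not pass without any 1 library other than STAT3KO replicate 3 or TLR9KO replicate 1 (limma adjusted p = 0.0606 to 0.0825), nor Fn1 without any other than TLR9KO replicate 3 (0.0546 to 0.118), and 1 other member was higher without TLR9KO replicate 3. Of 10 dendritic cell markers 2 were higher, the transcription factor Zbtb46 (0.55 ± 0.16) and Bst2, the antiviral protein tetherin (0.62 ± 0.17), and 2 lower, Itgax (-1.45 ± 0.27) and H2-DMb2. Zbtb46 did not pass without STAT3KO replicate 1 or 3 or TLR9KO replicate 1, 3 or 4 (0.0569 to 0.0764), nor Bst2 without TLR9KO replicate 4 (0.0619) and with the correction for GC content and length (0.35, limma adjusted p = 0.2). Of 14 tested neutrophil markers 2 were higher, Retnlg and Padi4 (1.67 ± 0.26), and 2 lower, the decoy receptor Il1r2 (-1.22 ± 0.15) and Trem1, an amplifying receptor of neutrophils and monocytes (-1.08 ± 0.26). Their summed level was 117 to 745 RPKM in STAT3KO and 116 to 316 RPKM in TLR9KO, and STAT3KO replicate 2 stood apart, with the calprotectin genes S100a8 at 12.2, 194, 13.6 and 17.6 RPKM and S100a9 at 14, 149.8, 18.1 and 23 RPKM in the 4 STAT3KO libraries. The neutrophil list's median log2 difference was 1.01, and 0.02 without that library. S100a8 and S100a9 did not pass with that library or without it (0.31 and 1.01 without it, limma adjusted p = 0.722 and 0.206). Without it, 14 IL-4-induced genes and 9 STAT3-responsive genes were lower and 11 lipid-handling genes higher. T and NK cell markers summed to 11.9 to 55.5 RPKM in STAT3KO and 10.4 to 45.1 RPKM in TLR9KO, with 0 of 10 past limma's test and 0 at an unadjusted p below 0.05, and 1 was higher without TLR9KO replicate 3 and 1 lower without STAT3KO replicate 3. The lineage genes Cd3e, Cpa3 and Epcam, of T cells, mast cells and epithelium, were at or below 1.52 RPKM in all 8 libraries. All epithelial markers, Cdh1 included, summed to 1.0 to 1.37 RPKM in STAT3KO and 3.77 to 11.5 RPKM in TLR9KO. Mast cell, basophil and eosinophil markers summed to 2.57 to 4.14 RPKM in STAT3KO and 4.64 to 6.46 RPKM in TLR9KO, and their 1 tested member did not pass. Of 8 fibroblast markers 0 passed (1 at an unadjusted p below 0.05), with sums of 104 to 124 RPKM in STAT3KO and 36.8 to 125 RPKM in TLR9KO, and 4 were higher without TLR9KO replicate 1 and 1 without STAT3KO replicate 3. Of 7 erythroid and platelet markers 0 passed (4 at an unadjusted p below 0.05), with sums of 612 to 1031 RPKM in STAT3KO and 149 to 773 RPKM in TLR9KO, and 3 were higher without STAT3KO replicate 3, 1 without TLR9KO replicate 1 and 2 with a pseudocount of 0.1. The part of other cell types in the results was not tested.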

How the data were processed

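The 11 deposited tables hold 1 RPKM value per gene symbol for 22068 symbols, per the file headers, except that 1 header (TLR9KO replicate 4) names no unit. The authors' steps are known only from the submitters' processing notes, which name CASAVA 1.7, TopHat 1.3.1, Bowtie 0.12.7, Partek and the build mm9. For annotation and multi-mapping rules the sources used here give nothing, so near-identical or overlapping genes can share reads. Read depth is not given either. Steps in the RPKM of microRNA genes (0.1 to 2 RPKM, whole reads within 0.15) placed it at 32.4 to 53.1 M reads in STAT3KO and 34.3 to 39.65 M in TLR9KO, with 72.09% to 90.91% of these values whole, so reads were not recovered and counting error was not measured.

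Values were analysed as log2(RPKM + 1), without rescaling, for 10557 genes whose mean over the 11 libraries reached 1 RPKM. A model with 3 group means was fitted to all 11 libraries, so that WT adds to the estimate of spread, with limma 3.58.1 (with trend, R 4.3.3). All tests are two-sided, with Benjamini-Hochberg adjustment over all genes tested and a threshold of 0.05. Errors are limma's moderated ones. When 200 of 10557 genes were changed in simulated data, 87% of 2-fold and 98% of 4-fold changes were recovered, and 7.04% of calls were false. These rates describe the simulation only, in which far fewer genes changed than the 2409 that passed here. They were not split by level of expression, and whether they hold for the real libraries or for low genes was not tested. Named genes are Stat3, Tlr9, the 12 largest rises and 12 largest falls among non-overlapping calls with a group mean of at least 5 RPKM, neighbours of the targeted genes, and for each gene list its defining members and up to 4 members with the smallest p. Glb1, Phgdh and the lineage genes below the filter were set side by side after their values were seen. Members, lists and tests were chosen with earlier results of these data known, and lists share genes. Gene order, GC content and length (98.8% of tested genes) and promoters came from GRCm38 tables, not the build of the files. Alternatives were another pseudocount, filter and scaling, the 8 knockout libraries alone, array weights, GC content and length correction, a replicate block, and leaving out each library. Leaving out STAT3KO replicate 2 and TLR9KO replicate 1 together was chosen after seeing the data. Python 3.11.15, pandas 2.3.3 and matplotlib 3.10.9 handled tables and plots. Some genes that the naming rule covers are not reported here.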

Additional observations from a re-analysis of the deposited data

Results flagged for a closer look

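In 15 of the 318 groups of 4 libraries behind the genes named here, 1 library lay far from the other 3 on the log2 scale, by a gap above Dixon's critical share of the group's range. Chance alone gives this in about 1 in 20 groups, which is close to this count. In STAT3KO replicate 1, Cxcl1 was 45 RPKM (others 23.1 to 25.1), Itgam was 191 RPKM (others 225 to 228) and Tlr7 was 23.7 RPKM (others 32.3 to 34.2). In STAT3KO replicate 2, Clec7a was 27.2 RPKM (others 66.4 to 74.4), Hif1a was 19.6 RPKM (others 25.8 to 27) and S100a8 was 194 RPKM (others 12.2 to 17.6). In STAT3KO replicate 3, Btg2 was 41.1 RPKM (others 24.9 to 26.6), Cish was 11.5 RPKM (others 6.87 to 7.05) and Nfkbid was 21.4 RPKM (others 11.5 to 12). In STAT3KO replicate 4, Ddit3 was 61.5 RPKM (others 70.6 to 72.2) and Il6st was 14.1 RPKM (others 17.4 to 18.1). In TLR9KO replicate 1, Cd68 was 1089.5 RPKM (others 799.8 to 836). In TLR9KO replicate 3, Nr4a2 was 5.85 RPKM (others 9.18 to 9.94), Osm was 108 RPKM (others 163 to 168) and Trem1 was 7.57 RPKM (others 16.2 to 18.5).
STAT3KO replicate 2 was also the library with the highest neutrophil genes of its group, and STAT3KO replicate 3 the one with the highest Junb. The cause of these gaps was not tested.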

How the results depend on the processing

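Of 130 named genes past the test, 120 kept their call and direction under each of the 18 alternatives run in which they were tested, and 10 lost it under at least 1. These were Retnlg, Abhd14a, H2-Aa, Ciita, Fth1, Ccr2, Fn1, Zbtb46 and Bst2, as given beside them, and Ddx3y. The lower call of Ddx3y was lost with the GC content and length correction (-0.28, limma adjusted p = 0.123) and without TLR9KO replicate 4 (-0.57, 0.0518). Further losses were those of Ccr2 (0.0611), Fn1 (0.0845) and Zbtb46 (0.0522) without the filter on low values, Ccr2 with the GC content and length correction (0.0627), and Fn1 with the 8 knockout libraries alone (0.0577). Without STAT3KO replicate 2 and TLR9KO replicate 1 together Retnlg (0.0751), Ddx3y (0.0714), Ccr2 (0.0621), Fn1 (0.0977) and Zbtb46 (0.0557) lost it. No named gene past the test changed sign. With array weights 3807 genes passed, 2297 higher and 1510 lower, and with a pseudocount of 0.1 189 genes were higher by at least 2-fold, and with a filter at 5 RPKM, which leaves fewer genes to test, 82 were. Among the lists the report counts, array weights moved these counts by over 1.5 times and by at least 3 members: 17 lower cholesterol genes, 9 lower interferon-inducible GTPases, PYHIN and Schlafen genes, 8 lower NF-kB genes, 8 lower Toll-like receptor genes, 6 lower lipid-handling genes, 11 higher and 5 lower p53 targets, 12 higher proteasome subunits and 8 higher oxidative phosphorylation subunits. A filter at 5 RPKM left 3 higher chemoattractant receptors, 3 higher costimulatory molecules and 3 higher growth factors, and no filter left 7 higher lysosomal and 3 higher iron genes. The cause of these shifts was not tested. With the GC content and length correction 2041 of 10428 genes passed, and 1572 of the 2376 calls that could be corrected were kept in the same direction. Leaving out each library gave 1577 to 2377 calls, 869 to 1382 higher and 636 to 995 lower, and 247 to 365 calls of at least 2-fold, 108 to 154 higher and 139 to 211 lower. Without STAT3KO replicate 2 and TLR9KO replicate 1 together 1837 genes passed.
Whether replicate numbers pair the groups is not known. Deviations from the group means correlated at 0.492, -0.04, 0.446 and -0.017 for same-numbered libraries and at -0.541 to 0.275 for the others. STAT3KO replicates 1 and 3 correlated best with their own number, and STAT3KO replicates 2 and 4 did not. With a replicate block 2603 genes passed, 2058 of them among the 2409, and 0 named calls were lost and 1 gained, Emr1 (0.61, limma adjusted p = 0.041). The block gave 12 lower and 3 higher interferon-inducible GTPases, PYHIN and Schlafen genes, 9 higher cell cycle genes, 3 higher and 3 lower glycolysis and hypoxia-induced genes, 4 higher erythroid and platelet markers, 4 lower monocyte markers, 5 higher STAT3-responsive genes, 4 higher proteasome subunits, 3 higher type I interferon genes, and 1 higher and 2 lower MHC class I genes. With the block and the GC content and length correction together Abhd14a (0.0779), Retnlg (0.0553), Ddx3y (0.0593) and Bst2 (0.123) lost their calls, and Emr1 (0.0354) and Cdkn1a (0.0349) gained one.
RPKM carry no counts, so the precision of low genes, such as Npy in TLR9KO or Pdcd1lg2 in STAT3KO, is not known, and 4 libraries a group limit all comparisons.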

Other observations

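Other genes also separated the knockouts, some of them named above. C4b, a complement component of the classical pathway, was 13.5, 19.8, 24.4 and 21.8 RPKM in STAT3KO and 41.3, 57.2, 49.3 and 50.7 RPKM in TLR9KO (-1.30 ± 0.16, limma adjusted p = 0.000503), whereas C1qa, the recognition component of the same pathway, did not pass (0.20 ± 0.24, 0.565). Itgax, the CD11c integrin chain of dendritic cells and macrophages, was 41.4, 21.8, 34.2 and 52.2 RPKM against 66, 132, 111 and 100.5 RPKM (-1.45 ± 0.27, limma adjusted p = 0.00442), and no STAT3KO library reached the TLR9KO range. The integrin chains Itgb5 (1.15 ± 0.18) and Itga6 (1.11 ± 0.24), which bind vitronectin and laminin in their dimers, were higher. Arg2, the mitochondrial arginase, was lower at 1.12 to 2.4 RPKM against 4.13 to 8.64 RPKM (-1.20 ± 0.27). Bcl2a1a, a survival gene of the BCL2 family with near-identical copies that can share reads, was lower (-0.95 ± 0.21). Cd79b, a B cell receptor component, was higher at 1.63 to 4.4 RPKM against 0.47 to 1.47 RPKM (1.11 ± 0.21).
The share of genes past the test grew with the level of expression, from 17.3% of 3165 genes with a mean under 5 RPKM in the knockouts to 23% from 5 to 20 RPKM, 27.2% from 20 to 100 RPKM and 30.9% of 693 genes over 100 RPKM. The summed RPKM of all symbols was 433598 to 450627 in STAT3KO and 390642 to 435666 in TLR9KO (exact permutation test, two-sided p = 0.0857).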
